A study of Danio rerio with 6 samples.

Results

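The 9 genes described here, or other copies from the same gene arrays, are known from zebrafish ionocytes, as parts of their ion transport or as regulators of their fate. For atp1a1a.3, kcnj1a.2, kcnj1a.5 and kcnj1a.6 it is other copies that are known from these cells. They are the sodium pump alpha subunit copies atp1a1a.1, atp1a1a.2 and atp1a1a.3, the pump beta subunit atp1b1b, the potassium channel copies kcnj1a.2, kcnj1a.5 and kcnj1a.6, and the forkhead transcription factors foxi3a and foxi3b. They were taken by gene name from the deposited annotation, and all 9 were among the 22350 genes of the count table and among the 19562 genes with enough counts to be tested. The genes were chosen with their difference between IWR-1 and DMSO larvae already known, so that difference is given as a description and no test is read from it. The lists of other genes below were also chosen with earlier results of these data known, so their counts and p-values are descriptions too.

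The RNA came from the injured stretch of the trunk of wild-type AB zebrafish larvae. All larvae had the spinal cord cut through near the anal pore when they were 5 days old (days post fertilization), recovered for 6 h, and were fed rotifers until collection at 8 days, which is 3 days after the injury. The IWR-1 group was bathed after recovery in 35 µM IWR-1 in 0.25% DMSO; IWR-1 is a compound that holds Wnt signalling down by stabilising Axin, part of the complex that degrades β-catenin. The DMSO group was bathed in 0.25% DMSO without the compound. Each of the 3 biological replicates per group was a pool of trunk pieces of about 1 mm from 20 animals, so differences between single animals were not measured. Every animal was injured and treated with DMSO, and the comparison is therefore of IWR-1 within injured larvae.

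Ionocytes are scattered epithelial cells that move ions between the body and the surrounding water, and in zebrafish larvae they lie mainly in the skin. The sodium pump in their basolateral membrane sets up the sodium and potassium gradients that the other transporters use, with an alpha subunit that carries out the transport and a beta subunit that the alpha subunit needs to mature and reach the membrane. The known ionocyte types include NCC cells, which take up sodium and chloride through the cotransporter Slc12a10.2, HR cells, which secrete acid, NaR cells, which take up calcium through Trpv6, and KS cells, which secrete potassium through a Kcnj1a channel. In zebrafish, atp1a1a.1, atp1a1a.2 and atp1a1a.5 are known as the alpha subunits of NaR, NCC and HR cells, and atp1a1a.1 is also used in many other tissues. foxi3a and foxi3b direct epidermal precursors to the ionocyte fate, and Notch signalling, with deltaC (dlc) as a ligand, limits how many precursors take it.

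Most of the genes come from tandem arrays. The atp1a1a array held 5 copies over 160 kb of chromosome 1 on the plus strand (1689775 to 1850104, build GRCz11), in the order atp1a1a.4, atp1a1a.1, atp1a1a.2, atp1a1a.3 and atp1a1a.5. atp1a1a.1 (1712140 to 1793371) and atp1a1a.2 (1789357 to 1796832) share 4015 bases of their annotated spans, and atp1a1a.3 lies at 1805294 to 1815660. atp1b1b is on the same chromosome and strand, at 10720294 to 10739221. The kcnj1a array held 6 copies over 67.4 kb of chromosome 18 on the minus strand (48491007 to 48558420). The span of kcnj1a.2 (48498366 to 48530221) covers kcnj1a.3, kcnj1a.4 and kcnj1a.5 (48499029 to 48500545) completely and kcnj1a.6 (48491007 to 48500545) in part, and kcnj1a.5 lies within kcnj1a.6. foxi3a (chromosome 21, 30351256 to 30352951) and foxi3b (chromosome 14, 34514336 to 34516587) overlap no other annotated gene. Reads from near-identical copies or overlapping exons can be lost or assigned to the wrong copy, and how the counting treated them is not given in the sources used here, so single copies are uncertain and sums over copies are given beside them.

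**Figure D1:**
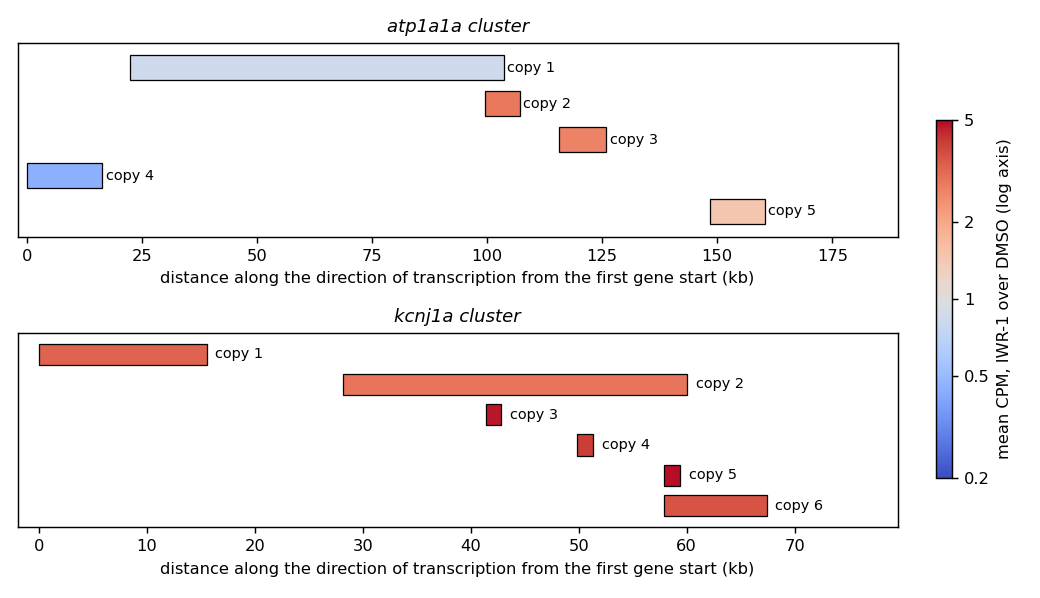
Annotated gene spans of the atp1a1a array (top) and the kcnj1a array (bottom), drawn against the distance in kb from the start of the most upstream copy, with 1 row per copy and a colour for the ratio of mean CPM, IWR-1 over DMSO, on a log axis. The 6 kcnj1a copies have ratios from 2.92 to 4.84, while in the atp1a1a array copies 2 and 3 have ratios of 2.86 and 2.65 beside 0.849 for copy 1.

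The deposited counts summed to between 11014963 and 15219664 per library. Muscle, spinal cord and skin genes were all measured, with ckma at 6053 to 7095 CPM, gfap at 596 to 912 CPM and krt4 at 1061 to 2411 CPM over the 6 libraries. CPM, the count relative to the library total, is given after TMM scaling of that total. A gene was called where the adjusted p (Benjamini-Hochberg) of edgeR's quasi-likelihood test was below 0.05, which held for 7.47% of tested genes, 3.88% higher and 3.59% lower with IWR-1. The replicate number as a block gave 17.8% (8.96% higher, 8.86% lower), and DESeq2, used as an alternative, called 7.96% (4.10% higher, 3.86% lower). The median log2 fold change (IWR-1 over DMSO) over all tested genes was -0.0060. A gene's groups are said not to overlap when all 3 values of a group lie beyond all 3 of the other, which held for 29.8% of tested genes, 14.2% in the higher and 15.6% in the lower direction. In bulk tissue, fewer or more ionocytes and less or more RNA per ionocyte cannot be told apart.

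Of the 9 genes, 8 were higher with IWR-1 and had groups that did not overlap, and the remaining gene, atp1a1a.1, was slightly lower, also without overlap. Of all tested genes 29.8% had groups without overlap, 14.2% higher and 15.6% lower. The fitted log2 fold changes ran from -0.24 to 2.31 with a median of 1.42. In the test across all genes 6 of the 9 were past the threshold, all higher (3.88% of all genes were), as with DESeq2 (4.10%) and with the replicate block (8.96%), from which nothing is read because the genes were chosen on this difference.

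**Figure D2:**
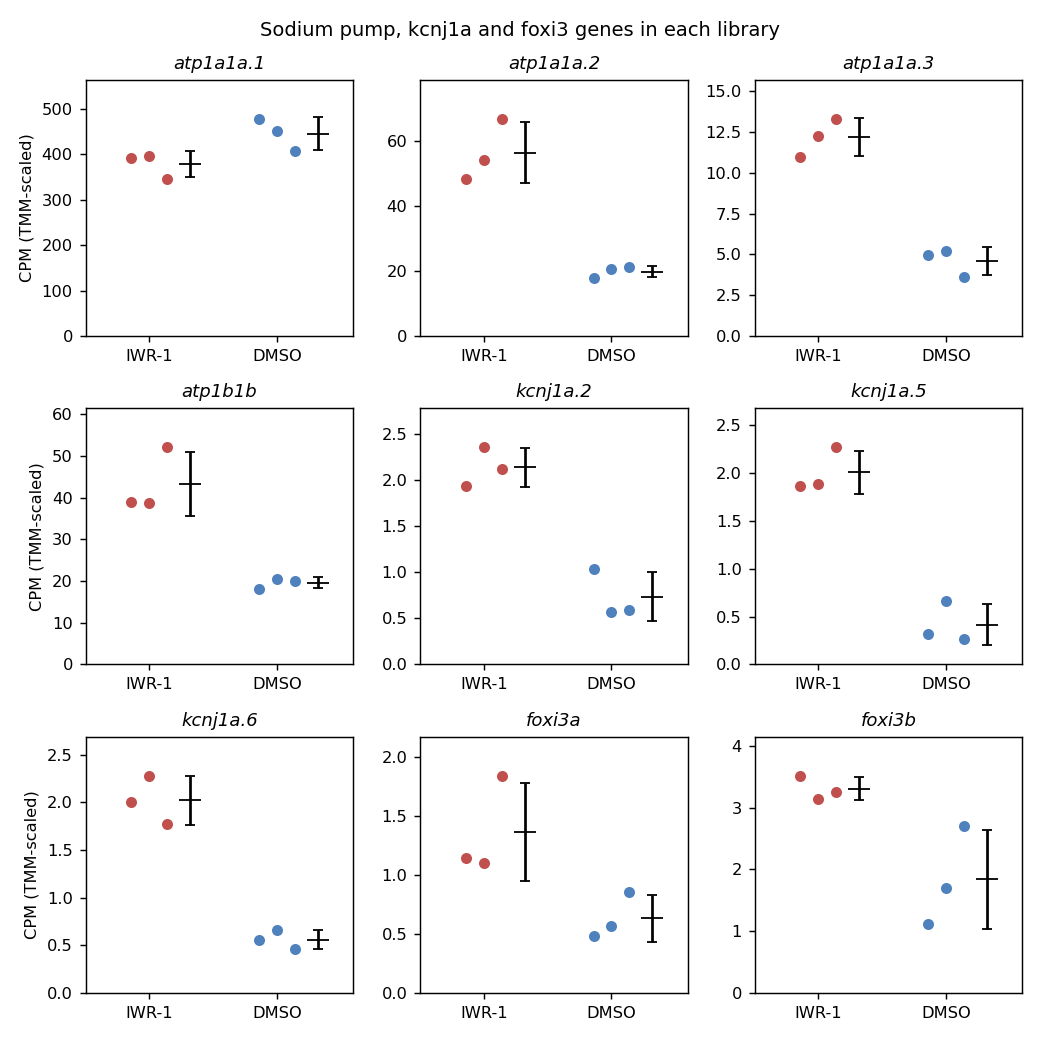
CPM of each of the 9 genes in the 3 IWR-1 libraries (red, left) and the 3 DMSO libraries (blue, right); points are libraries in replicate order, bars are mean ± SD, and each panel has its own axis from 0. All IWR-1 points lie above all DMSO points in 8 panels, and atp1a1a.1 shows the opposite order with a small gap (345 to 398 CPM against 408 to 479 CPM).

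The sodium pump alpha copies differed among themselves. atp1a1a.2 had 48.4, 54.0 and 66.8 CPM in IWR-1 replicates 1, 2 and 3, against 17.7, 20.4 and 21.1 CPM in DMSO replicates 1, 2 and 3. The lowest IWR-1 library lay far above the highest DMSO library, and the log2 fold change was 1.51 ± 0.16 (SE). atp1a1a.3, a copy that lies next to it, had 11.0, 12.3 and 13.3 CPM in the IWR-1 libraries and 4.95, 5.18 and 3.63 CPM in the DMSO libraries. Its log2 fold change was 1.42 ± 0.20. atp1a1a.1 had 392, 398 and 345 CPM in the IWR-1 libraries and 479, 451 and 408 CPM in the DMSO libraries, a log2 fold change of -0.24 ± 0.14. The gap between its groups, from 398 to 408 CPM, was smaller than the range within either group.

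The copies outside the 9 genes were low. atp1a1a.4 had 6, 17 and 7 counts in the IWR-1 libraries and 21, 23 and 18 counts in the DMSO libraries, with a log2 fold change of -1.14 ± 0.46 that missed the threshold (edgeR adjusted p = 0.160). With the replicate number as a block it was called lower (adjusted p = 0.0419), as were 8.86% of all genes. With IWR-1 replicate 2 left out the log2 fold change of atp1a1a.4 was -1.81, and with IWR-1 replicate 1 left out it was -0.86. atp1a1a.5, the HR cell alpha subunit, had 13, 6 and 15 counts with IWR-1 and 7, 5 and 10 with DMSO, overlapping groups that were too low for the count filter of edgeR's test.

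Shares within a library do not depend on library scaling. atp1a1a.2 held 10.7%, 11.6% and 15.6% of all atp1a1a counts in IWR-1 replicates 1, 2 and 3, against 3.52%, 4.26% and 4.85% in DMSO replicates 1, 2 and 3. For atp1a1a.3 the shares were 2.42%, 2.63% and 3.12% in the IWR-1 libraries, against 0.984%, 1.08% and 0.836% in the DMSO libraries. atp1a1a.1 held most of the counts, 84.3% ± 3.01 in IWR-1 libraries and 94.3% ± 0.617 in DMSO libraries (SD, n = 3 each). The sum over all 5 copies was 448 ± 19.7 CPM with IWR-1 and 472 ± 35.2 CPM with DMSO (SD, n = 3 each), and these groups overlapped. Reads of atp1a1a.2 that were counted as atp1a1a.1, or the reverse, would move these shares, which was not tested.

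The beta subunit gene atp1b1b had 39.1, 38.8 and 52.1 CPM in the IWR-1 libraries and 18.1, 20.5 and 20.1 CPM in the DMSO libraries. Its groups were far apart, at 43.3 ± 7.60 CPM with IWR-1 and 19.6 ± 1.33 CPM with DMSO (SD, n = 3 each), and its log2 fold change was 1.15 ± 0.16. Like atp1a1a.2 it was highest in IWR-1 replicate 3 and lowest in DMSO replicate 1. The ratio of atp1b1b to atp1a1a.2 counts was 0.807, 0.719 and 0.780 in the IWR-1 libraries and 1.02, 1.00 and 0.956 in the DMSO libraries. The ratio moved less than either gene did, and was lower in all IWR-1 libraries.

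The rest of the pump genes were mostly level or lower. Of 15 other sodium pump alpha, beta and FXYD regulator genes listed, 12 were tested. Of these 0 rose and 1 fell (3.88% and 3.59% of all genes did), and their median log2 fold change was -0.16. Groups did not overlap for 1 gene higher with IWR-1, atp1b4 (0.33 ± 0.14), and for 3 lower (14.2% and 15.6% of all genes). At an unadjusted p below 0.05 edgeR gave 1 higher and 3 lower, and at an adjusted p below 0.05 DESeq2 gave 0 and 1. With the replicate block 3 fell (8.86% of all genes did), as did 2 without DMSO replicate 3 (1082 of 19814 genes). The gene that fell was atp1b3a, a beta subunit, with 17.6 ± 1.12 CPM with IWR-1 and 34.9 ± 7.37 CPM with DMSO (SD, n = 3 each; log2 fold change -0.99 ± 0.17, edgeR adjusted p = 0.00705). Without IWR-1 replicate 3 its adjusted p was 0.0505. atp1b1a, the paralog of atp1b1b, had 184, 200.2 and 185 CPM with IWR-1 and 247, 380.1 and 220.03 CPM with DMSO, a log2 fold change of -0.57 ± 0.20 (edgeR adjusted p = 0.106, and 0.0148 with the replicate block). Counts of atp1b1b per count of atp1b1a were 0.213, 0.194 and 0.282 in the IWR-1 libraries and 0.0730, 0.0540 and 0.0915 in the DMSO libraries, groups well apart. The neuronal alpha subunits atp1a3a and atp1a3b were at -0.05 ± 0.15 and -0.04 ± 0.13.

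The kcnj1a channels are relatives of mammalian ROMK, the potassium secretion channel of the kidney. kcnj1a.5 had 26, 24 and 32 counts in IWR-1 replicates 1, 2 and 3 and 4, 7 and 4 counts in DMSO replicates 1, 2 and 3. In CPM this was 2.01 ± 0.226 with IWR-1 and 0.414 ± 0.214 with DMSO (SD, n = 3 each), and its log2 fold change of 2.31 ± 0.40 was the highest of the 9 genes. kcnj1a.6, which contains the span of kcnj1a.5, had 28, 29 and 25 counts with IWR-1 and 7, 7 and 7 with DMSO, a log2 fold change of 1.85 ± 0.34. kcnj1a.2 had 27, 30 and 30 counts with IWR-1 and 13, 6 and 9 with DMSO, and 1.53 ± 0.34. For each of the 3 copies the lowest IWR-1 library stood above the highest DMSO library, with the smallest gap for kcnj1a.2.

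The copies not among the 9 genes showed the same order of groups. kcnj1a.3 rose, with 15, 17 and 16 counts in the IWR-1 libraries and 5, 3 and 1 in the DMSO libraries (log2 fold change 2.27 ± 0.52, edgeR adjusted p = 0.0248). Its call was lost without IWR-1 replicates 1, 2 and 3 (adjusted p = 0.0554, 0.101 and 0.0995) and without DMSO replicate 3 (0.0549). kcnj1a.4 had 13, 15 and 15 counts with IWR-1 and 4, 0 and 7 with DMSO and did not pass (1.87 ± 0.58, edgeR adjusted p = 0.0806, and 0.0335 with the replicate block). Its log2 fold change was 2.55 without DMSO replicate 3 and 1.40 without DMSO replicate 2. kcnj1a.1, the copy known from KS cells, had 9, 17 and 14 counts with IWR-1 and 2, 3 and 7 with DMSO, too few for the count filter of edgeR's test. With DESeq2 and with all genes kept, which tested it, kcnj1a.1 was not called. An antisense transcript, CR786562.1, overlaps 10309 bases of kcnj1a.1 on the opposite strand. Without the strand setting of the counting the reads of the pair cannot be told apart.

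Summed over all 6 copies the array had 118, 132 and 132 counts in the IWR-1 libraries and 35, 26 and 35 in the DMSO libraries. The sum was 9.39 ± 0.954 CPM with IWR-1 and 2.52 ± 0.251 CPM with DMSO (SD, n = 3 each), 3.73 times as high with IWR-1. It does not depend on how reads were split among copies within the array. Reads that were dropped, or counted for more than 1 copy, would change it, which was not tested. kcnj1a.2 held 22.9%, 22.7% and 22.7% of the array's counts in the IWR-1 libraries and 37.1%, 23.1% and 25.7% in the DMSO libraries. The DMSO shares rest on 26 to 35 counts per library.

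**Figure D3:**
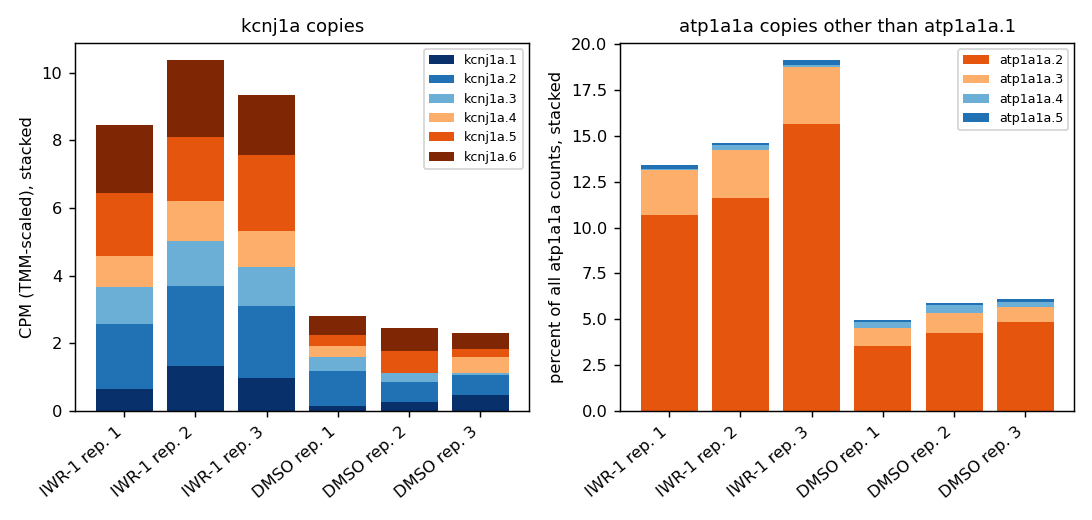
Left, CPM of the 6 kcnj1a copies stacked in each library, which sum to 8.46 to 10.4 in the IWR-1 libraries and 2.31 to 2.80 in the DMSO libraries. Right, the percent of all atp1a1a counts that came from copies 2 to 5, stacked in each library, where atp1a1a.2 makes up most of the bar and is at 10.7% to 15.6% with IWR-1 and 3.52% to 4.85% with DMSO.

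Other inward rectifier channel genes were listed apart. Of 9 listed, 5 were tested. With edgeR 0 rose and 1 fell (3.88% and 3.59% of all genes did). At an unadjusted p below 0.05 edgeR gave 0 higher, and DESeq2 called 0 higher. kcnj13, a channel gene whose zebrafish mutants have altered pigment stripes, fell to 21.1 ± 2.91 CPM with IWR-1, against 43.7 ± 9.70 CPM with DMSO (SD, n = 3 each; log2 fold change -1.05 ± 0.18, edgeR adjusted p = 0.00752), though at an adjusted p of 0.0541 without IWR-1 replicate 3. kcnj1b, the paralog of the array on another chromosome, was at 0.0096 ± 0.27.

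Both transcription factor genes were higher with IWR-1. foxi3a had 16, 14 and 26 counts in the IWR-1 libraries and 6, 6 and 13 counts in the DMSO libraries, or 1.15, 1.10 and 1.84 CPM against 0.479, 0.565 and 0.858 CPM. Its log2 fold change was 1.07 ± 0.40. Dropping single libraries moved this to between 0.79 (IWR-1 replicate 3 dropped) and 1.38 (DMSO replicate 3 dropped). foxi3b had 49, 40 and 46 counts in the IWR-1 libraries and 14, 18 and 41 in the DMSO libraries, or 3.51, 3.14 and 3.26 CPM against 1.12, 1.69 and 2.71 CPM. DMSO replicate 3 was the highest DMSO library for both genes and came close to the IWR-1 libraries for foxi3b. The log2 fold change of foxi3b was 0.82 ± 0.31, moving to between 0.56 (DMSO replicate 1 dropped) and 1.24 (DMSO replicate 3 dropped). Neither foxi3 gene was past the threshold in the fit of all libraries. foxi3a, unlike foxi3b, was highest in replicate 3 of both groups.

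Other ionocyte genes were listed apart from the 9, in lists chosen with earlier results of these data known. The lists held genes of the NCC, HR and NaR types, genes of ionocyte specification, and receptors for hormones of ion balance. As a description, 4 of 30 tested rose and 0 fell (3.88% and 3.59% of all genes did). At an unadjusted p below 0.05, 8 were higher and 5 lower, and DESeq2 called 4 higher and 1 lower. With the replicate block 7 were called higher and 2 lower (8.96% and 8.86% of all genes were), and without DMSO replicate 3 it was 5 and 2. Their median log2 fold change was 0.16. Groups did not overlap for 12 of the 30 higher and for 6 lower with IWR-1 (14.2% and 15.6% of all genes). The NCC list had 2 of 3 tested genes higher. slc12a10.2, the sodium chloride cotransporter that gives NCC cells their name, had 39.6, 39.4 and 38.02 CPM in the IWR-1 libraries and 9.91, 13.8 and 12.7 CPM in the DMSO libraries (log2 fold change 1.68 ± 0.16, edgeR adjusted p = 0.000207). clcn2c, a chloride channel of the same cells, rose to 8.75 ± 1.88 CPM with IWR-1, against 2.55 ± 0.344 CPM with DMSO (SD, n = 3 each; 1.77 ± 0.23, edgeR adjusted p = 0.00142). The bicarbonate cotransporter slc4a4b did not pass (0.25 ± 0.14, edgeR adjusted p = 0.314). The ratio of slc12a10.2 to atp1a1a.2 counts overlapped between the groups, at 0.705 ± 0.126 in IWR-1 libraries and 0.613 ± 0.0602 in DMSO libraries (SD, n = 3 each).

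Of 8 tested HR genes 1 rose (3.88% of all genes did). This was ceacam1, which had 23.5 ± 4.41 CPM with IWR-1 and 7.44 ± 0.557 CPM with DMSO (SD, n = 3 each; log2 fold change 1.65 ± 0.18, edgeR adjusted p = 0.000549). The list had a median log2 fold change of 0.84. Groups did not overlap for 5 of its 8 genes higher with IWR-1 and for 1 lower, ca2 (14.2% and 15.6% of all genes). The carbonic anhydrase ca15a (1.01 ± 0.30), the sodium proton exchanger slc9a3.2 (1.38 ± 0.49), the ammonia channel rhcgb (0.77 ± 0.25) and the anion exchanger slc4a1b (0.91 ± 0.32) missed the threshold, their edgeR adjusted p being 0.0649, 0.116, 0.0857 and 0.113. With the replicate block 4 of the 8 were called higher (8.96% of all genes were), with ca15a at an adjusted p of 0.0115, slc9a3.2 at 0.0492 and rhcgb at 0.0430. slc9a3.2 rested on IWR-1 replicate 3, without which its log2 fold change was 0.78 (adjusted p = 0.477). The list had 2 calls without IWR-1 replicate 1 (ca15a, 0.0368) and without DMSO replicate 3 (rhcgb, 0.0458). The proton pump genes atp6v1aa and atp6v1ba, which many cell types use, were at 0.17 ± 0.16 and 0.03 ± 0.20, and ca2 at -0.36 ± 0.15.

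In the NaR list 0 of 5 tested genes passed edgeR's test (7.47% of all genes did), 1 had an unadjusted p below 0.05, and 0 passed with DESeq2. The calcium channel trpv6 had 9, 12 and 12 counts with IWR-1 and 6, 13 and 7 with DMSO. igfbp5a had 11, 11 and 15 counts with IWR-1 and 30, 13 and 24 with DMSO, a log2 fold change of -0.94 ± 0.36 (edgeR adjusted p = 0.141). Both genes had at most 30 counts in a library. slc8a1b, atp2b2 and pappaa had mean levels of 29.9, 328 and 50.5 CPM with IWR-1 and 30.7, 382 and 48.0 CPM with DMSO. How much of that RNA came from NaR cells was not tested. Whether the NaR genes responded differently from the NCC genes was not tested.

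Among genes of ionocyte specification 1 of 9 tested rose (3.88% of all genes did). This was dlc, at 33.7 ± 5.84 CPM with IWR-1 and 14.6 ± 1.15 CPM with DMSO (SD, n = 3 each; log2 fold change 1.20 ± 0.17, edgeR adjusted p = 0.00218). Delta and Notch genes are used in the cord and other tissues too, and the tissue is a mixture. notch3 (-0.49 ± 0.14) and the basal epidermal factor tp63 (-0.47 ± 0.16) missed the threshold (edgeR adjusted p = 0.0533 and 0.109), and were called lower with the replicate block (0.0111 and 0.0213) and without DMSO replicate 3 (0.0301 and 0.0455). DESeq2 also called notch3 lower (0.0231). foxi1 and gcm2, a regulator of HR cells, had at most 7 and 16 counts in a library and were below the count filter of edgeR's test. Of 5 tested receptors for hormones of ion balance, 0 passed edgeR's test (7.47% of all genes did). At an unadjusted p below 0.05 edgeR gave 0, and 0 passed with DESeq2.

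**Figure D4:**
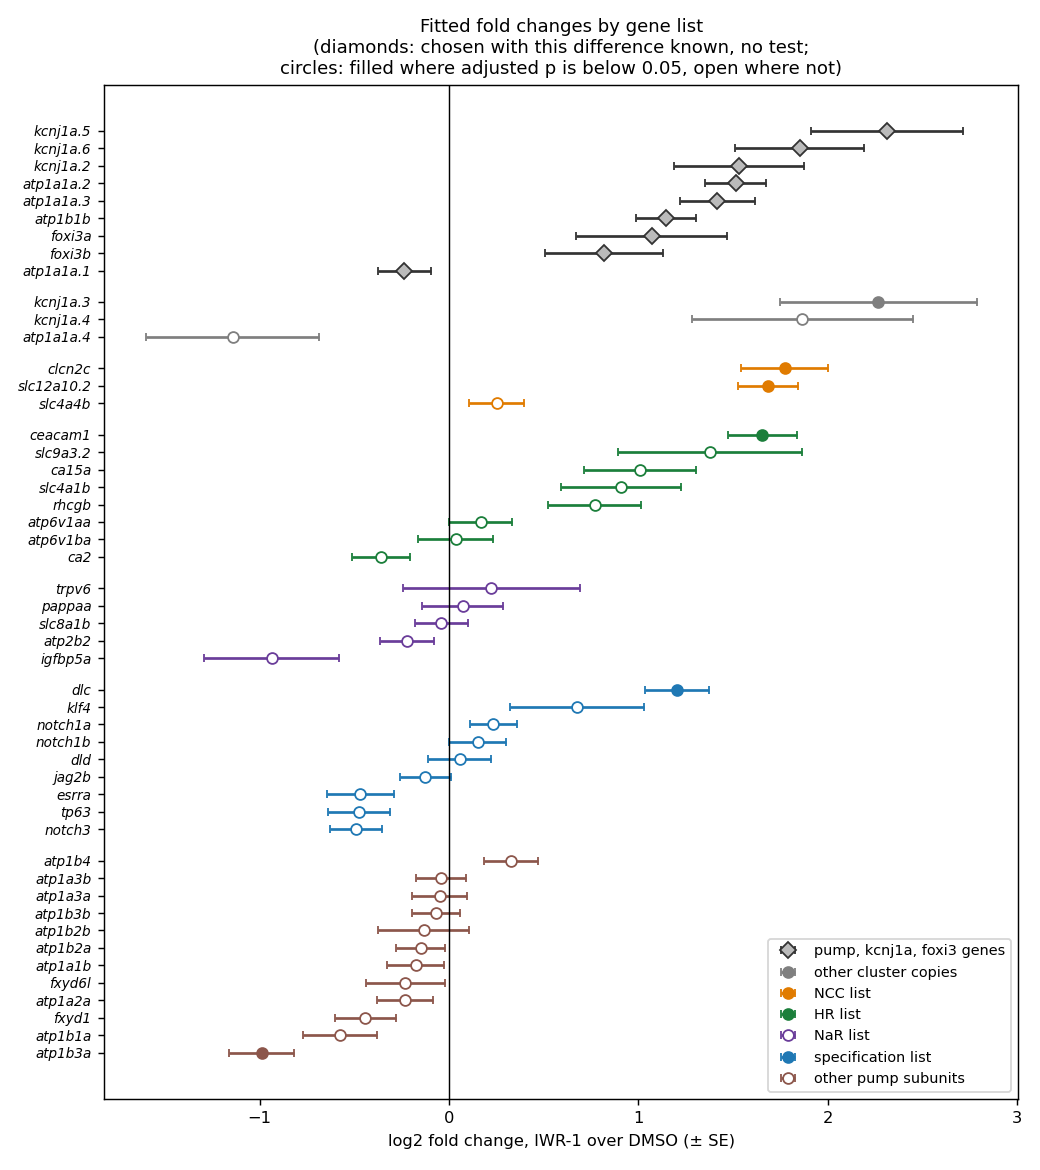
Fitted log2 fold changes (IWR-1 over DMSO) ± SE for the 9 genes, the other array copies, 4 ionocyte lists and the other pump subunits; diamonds are the 9 genes, for which no test is shown, and circles are filled where the edgeR adjusted p is below 0.05. clcn2c, slc12a10.2 and ceacam1, the highest of the ionocyte lists, lie between 1.65 and 1.77, near atp1a1a.2 at 1.51. Below 0 lie 0 of 3 NCC, 1 of 8 HR, 3 of 5 NaR and 4 of 9 specification genes, with igfbp5a lowest at -0.94. Of the 12 other pump subunits 11 lie below 0, many of them close to it, as do 9886 of all 19562 tested genes.

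Other cell types that could hold these transcripts were measured beside them. Of 12 epidermal genes 5 fell and 0 rose (3.59% and 3.88% of all genes did). At an unadjusted p below 0.05 edgeR gave 1 higher, and DESeq2 called 0 higher. Among those that fell were krt17 (-1.08 ± 0.16, edgeR adjusted p = 0.00346) and cyt1 (-1.39 ± 0.21, edgeR adjusted p = 0.00298). The list summed to 3365 to 5015 CPM in IWR-1 libraries and 5621 to 6870 CPM in DMSO libraries. krt4, krt5 and krtt1c19e also fell, and krt4 lost its call without any 1 of the 6 libraries. Of the 12, 4 fell without DMSO replicate 2, 2 without any other 1 library and 3 with upper-quartile scaling. Against this, 6 fell with the replicate block (8.86% of all genes) and 6 with DESeq2 (3.86%). The gene gained was cyt1l (adjusted p = 0.000761 with the block and 0.0187 with DESeq2). The epidermal sums of the groups did not overlap, lower with IWR-1, and their part in the values of the 9 genes was not tested. Most of the epidermal sum was krt4 (means of 1377 CPM with IWR-1 and 2230 CPM with DMSO) and krt5 (955 and 1534 CPM). The keratin krt91 (means of 578 CPM with IWR-1 and 683 CPM with DMSO) had overlapping groups and was not called (-0.24 ± 0.25, edgeR adjusted p = 0.593). The listed genes other than keratins were also not called. They were cdh1 (0.41 ± 0.19, edgeR adjusted p = 0.203), evpla (0.30 ± 0.15), ppl (0.13 ± 0.19), cldni (0.03 ± 0.18) and epcam (-0.07 ± 0.18). Within each group, replicate 3 had the highest epidermal sum and also the highest atp1a1a.2 and foxi3a, but the lowest atp1a1a.1 and kcnj1a.6. The rest of the 9 genes were highest in replicate 3 of at most 1 group. The share of all genes with such an order was not counted, and same-numbered libraries deviated together over all genes. Nothing is therefore read from these orders. Of 4 mucous cell genes 2 rose and 1 fell (3.88% and 3.59% of all genes did). Those higher were muc5.1 (1.98 ± 0.24, edgeR adjusted p = 0.000888) and agr2 (0.95 ± 0.22, edgeR adjusted p = 0.0271), and muc5.2 fell (-0.88 ± 0.15, edgeR adjusted p = 0.00654). The mucous cell list summed to 429 to 759.8 CPM in IWR-1 libraries and 202 to 277 CPM in DMSO libraries, and its part in the values above was not tested. The largest part of this sum was muc5.1 (means of 522 CPM with IWR-1 and 132 CPM with DMSO). agr2 was not called without IWR-1 replicates 2 and 3 (0.101 and 0.150) or DMSO replicate 1 (0.115).

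The pronephros, whose tubule cells also use sodium pumps and kcnj1a, had 0 of 6 tested genes past edgeR's test (7.47% of all genes were). It also had 0 at an unadjusted p below 0.05 and 0 with DESeq2. slc20a1a was called higher with the replicate block (adjusted p = 0.0377) and without DMSO replicate 2 (0.0380). Of 13 pronephros genes listed, 7 were in the count table, without slc12a1, slc12a3, clcnk, bsnd, hnf1ba and hnf1bb. These 7 summed to 170.008 to 193 CPM in IWR-1 libraries and 135 to 174 CPM in DMSO libraries, which overlapped. Most of the sum came from slc4a4a, slc20a1a and lrp2a (means of 81.9, 46.7 and 38.2 CPM with IWR-1), so it says little about the pronephros as a whole. The marker cdh17 had 3, 4 and 4 counts with IWR-1 and 1, 0 and 13 with DMSO. Of 6 tested neuromast genes of the lateral line, whose organs hold ionocytes of their own, 1 fell (3.59% of all genes did). The gene that fell was s100s (-1.66 ± 0.34, edgeR adjusted p = 0.0151), though not without IWR-1 replicate 2 or 3 (0.0644 and 0.0682). With the replicate block 3 fell (8.86% of all genes), and 2 fell without DMSO replicate 2 (769 of 20037 genes). The list summed to 48.5 to 62.1 CPM with IWR-1 and 51.5 to 59.1 CPM with DMSO, with cldnb as the largest part (means of 40.4 and 31.9 CPM). Groups did not overlap for 1 tested gene higher (tmc2b) and 3 lower with IWR-1 (otofb, s100t and s100s), against 14.2% and 15.6% of all genes. The gut list, with 3 genes measured, summed to 1.73 to 4.74 CPM with IWR-1 and 0.848 to 4.69 CPM with DMSO. Of its 2 tested genes edgeR called 0 (7.47% of all genes were called), 0 had an unadjusted p below 0.05, and DESeq2 called 0. fabp2 (1.20 ± 0.64, edgeR adjusted p = 0.284) had overlapping groups and was called higher with the replicate block (0.0354) and without DMSO replicate 3 (0.0131). vil1 was at -0.29 ± 0.61 (edgeR adjusted p = 0.810), and turned positive with DMSO replicate 3 left out (0.37) or IWR-1 replicate 2 left out (0.17).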

How the data were processed

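Libraries of ribosome-depleted RNA, 6 in all (3 IWR-1 and 3 DMSO), were grouped by title, and the deposited sample sheet linked table columns to them. Per the labels' protocols, RNA was extracted with a kit for fixed tissue and the library kit kept strand. The submitters' processing notes name the trimmer cutadapt, FastQC, the aligner STAR, featureCounts and GRCz11. Their versions, the strand setting and the handling of reads with several matches were not given in the sources used here. The authors deposited raw counts per Ensembl gene. The authors also deposited a comparison with a mean normalized signal, a test score, p-values and log2 fold changes per gene, whose column names are those of DESeq2 per the file headers; only its log2 fold changes are quoted. The labels call the replicates biological and do not say what else they share.

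Counts were fitted in R 4.3.3 by edgeR 4.0.16 (TMM, filterByExpr, robust quasi-likelihood, 2 groups of 3). Of 22350 genes 2788 were too low, and p-values were adjusted over the other 19562. A standard error is the size of the log2 fold change over the root of F. The fit was tested on simulated data. For atp2b2, with 2 gene IDs, the first was used. Deviations from the group means correlated between same-numbered samples at 0.293, 0.341 and 0.159, a pairing that comes from the data, so blocked fits are given where they change a call. Chi-square per degree of freedom between libraries of a group was at least 8.18, so none were counted as 1 sample. Alternatives were the block, upper-quartile or RLE scaling, all genes kept, a filter at CPM of 1 in 3 samples, DESeq2 1.42.0 and each library left out.

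The 9 genes and the lists of other pump, channel, ionocyte and other cell type genes were chosen with earlier results of these data known. Named genes were all 9, list genes past the threshold or defining their list, and the 5 genes of most similar pattern. Exon lengths were not used, so shares and ratios of counts between genes serve to compare libraries and do not measure relative transcript levels.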

Additional observations from a re-analysis of the deposited data

How the results depend on the processing

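Over all genes 1462 were called (7.47% of those tested), against 3486 with the replicate block (17.8%). Leaving out 1 library gave 447 of 19744 (IWR-1 replicate 3), 596 of 20003 (IWR-1 replicate 2) and 680 of 20041 (DMSO replicate 1) at the low end. At the high end it gave 2117 of 19814 (DMSO replicate 3). Of the 9 genes, 6 were past the threshold with all libraries, whichever of the 6 other settings was used, and 4 to 6 without 1 library. kcnj1a.2 was not past it without IWR-1 replicate 2, IWR-1 replicate 3 or DMSO replicate 3, kcnj1a.6 not without IWR-1 replicate 2, and foxi3b was past it without DMSO replicate 3. All 108 fold changes of the 9 genes under the 12 alternatives kept their sign, and 106 moved by less than the spread between replicates. The others were kcnj1a.2 without DMSO replicate 1 (1.86) and kcnj1a.5 without DMSO replicate 2 (2.76). Nothing is read from these calls and kept signs, since the 9 genes were chosen on this difference and the alternatives reuse the same counts. Of the 30 other ionocyte genes 4 were called, 9 with the replicate block and 4 to 7 without 1 library (7 without DMSO replicate 3). Of the genes of other cell types 9 were called, 14 with the replicate block and 4 to 10 without 1 library (4 without IWR-1 replicate 2 or 3, 5 without DMSO replicate 1). No call of a listed gene reversed its direction under these alternatives. Counts of the kcnj1a copies and foxi3a were at most 32 per library, which limits their precision, and counting intervals would cover counting error only.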

Other observations

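Apart from the 9 genes themselves, 5 genes were most like the mean log2 CPM of the 9 (each standardised) over the 6 libraries. They were mpp6b, paqr3b, si:ch73-338o16.4, actc1a and h1f0, with Pearson correlations from 0.998 to 0.999 over 6 libraries of 2 groups. Of 18766 genes compared, 1.53% reached 0.95. The libraries fall into the 2 treatment groups, so any gene that differs mainly between them has a high value. Their changes differed in size: actc1a, a cardiac actin gene, had 54.1 CPM with IWR-1 and 2.36 CPM with DMSO (means), while h1f0, a linker histone gene, had 142 and 107 CPM with IWR-1 and DMSO. Of the 9 genes, atp1a1a.2 lay closest to their mean (0.991) and atp1a1a.1 ran against it (-0.811). Each gene is itself part of that mean, and the 9 genes were chosen on the group difference, so nothing is read from these values.

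In the authors' deposited table the log2 fold changes were 1.40 for atp1a1a.2, 1.25 for atp1a1a.3 and 1.06 for atp1b1b, near those fitted here. For the kcnj1a copies, which have low counts, the authors' deposited table gave 1.01 for kcnj1a.2, 1.36 for kcnj1a.5 and 1.17 for kcnj1a.6, smaller than those fitted here. DESeq2 run here on the same counts gave 1.55, 2.33 and 1.87, so the gap may lie in how fold changes were estimated, which was not tested. The authors' deposited table gave 0.64 for foxi3a and 0.62 for foxi3b, and -0.22 for atp1a1a.1.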
